A study of Mus musculus with 6 samples.

Results

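The assays mmu-miR-720, mmu-miR-1937b and mmu-miR-1937c were the 3 of 750 miRNA assays on the TaqMan Array Rodent MicroRNA cards named miR-720 or miR-1937, and all 3 lay on card B, among its 375 miRNA assays. They were selected on their names and on measured values, since their raw Ct was known to be earlier in both pools numbered 1 than in the other pools. Ct is the PCR cycle at which the fluorescence of a well crosses the threshold, so that a lower Ct means more template and a difference of 1 cycle is a factor of about 2. The difference between the pools numbered 1 and the others is therefore given as a description without a test. Vitrified against fresh blastocysts was tested, and the direction of that difference played no part in the choice. The choice did, however, require an early pool in each group. This widens the spread of the levels within both groups and makes the groups overlap. A large p for a level over all pools is thus partly set by the choice and does not show that the groups are alike. The comparison is therefore also given without the pools numbered 1.

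Mature tRNAs are abundant structured RNAs made by RNA polymerase III that carry amino acids to the ribosome. They are also cut into shorter fragments of about the length of a miRNA. The sequences named miR-720 and miR-1937 were described as miRNAs from small RNA sequencing and match tRNA, and both entries were later withdrawn from miRBase. The match to tRNA is background and was not checked here. Among the controls of these cards, U6 snRNA and Y1, a small cytoplasmic RNA, are likewise made by RNA polymerase III. snoRNA135 and snoRNA202 are nucleolar RNAs, and U87 belongs to the related RNAs of Cajal bodies.

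Blastocysts came from superovulated and mated Kunming females, aged 5 weeks, and were kept in CZB medium. The vitrified group (V1, V2 and V3) was exposed for 30 seconds to 10% EG (ethylene glycol) and 10% DMSO and for 25 seconds to the vitrification solution EDFS30 in an open-pulled straw, frozen in liquid nitrogen, and warmed in 0.5 M sucrose for 5 minutes. The control group (F1, F2 and F3) was fresh. Each of the 6 pools held 300 blastocysts, so that a value is an average over many embryos. From each pool 30 ng of RNA was reverse transcribed, so that a Ct is relative to this amount, and fewer cells of a type cannot be told apart from less RNA per cell.

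V1 and F1 stood apart from the other pools. A Ct below 40 was obtained for 218 of the 750 miRNA assays in V1 and for 140 in F1, against 382 to 409 in the others. The miR-290 to miR-295 cluster, which is typical of the early mouse embryo, was undetermined in V1 and F1 in all 17 assays named for it, whereas 8 to 12 of the 17 gave a Ct in each of the other pools. The label of V1 and F1 as blastocysts was thus not borne out by these markers. As most miRNA assays gave no Ct in V1 and F1, the absence of these markers cannot be told apart from the general lack of signal there. It therefore does not show that these pools were of another cell type. The fold changes and distances of the 3 assays are also given without V1 and F1.

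The assay of mmu-miR-1937b gave the earliest Ct of all miRNA assays in V1, at 13.39, and in F1, at 12.86. V2 and V3 were at 19.97 and 19.64, F2 at 20.04 and F3 at 17.43. The 6 pools thus fell into 3 levels, with V1 and F1 earliest, F3 between, and V2, V3 and F2 within a range of 0.40 cycles.

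The assay of mmu-miR-1937c ran close behind it. The raw Ct of the vitrified pools V1, V2 and V3 was 14.44, 20.45 and 20.31, and that of the fresh pools F1, F2 and F3 was 13.85, 20.55 and 17.71. The pools took the same order as for mmu-miR-1937b.

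The assay of mmu-miR-720 came later in every pool. V1, V2 and V3 had a raw Ct of 18.58, 24.14 and 24.61, and F1, F2 and F3 had one of 19.81, 24.11 and 22.18. V1 was earlier than F1 here, whereas for both miR-1937 assays F1 was earlier than V1.

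**Figure D1:**
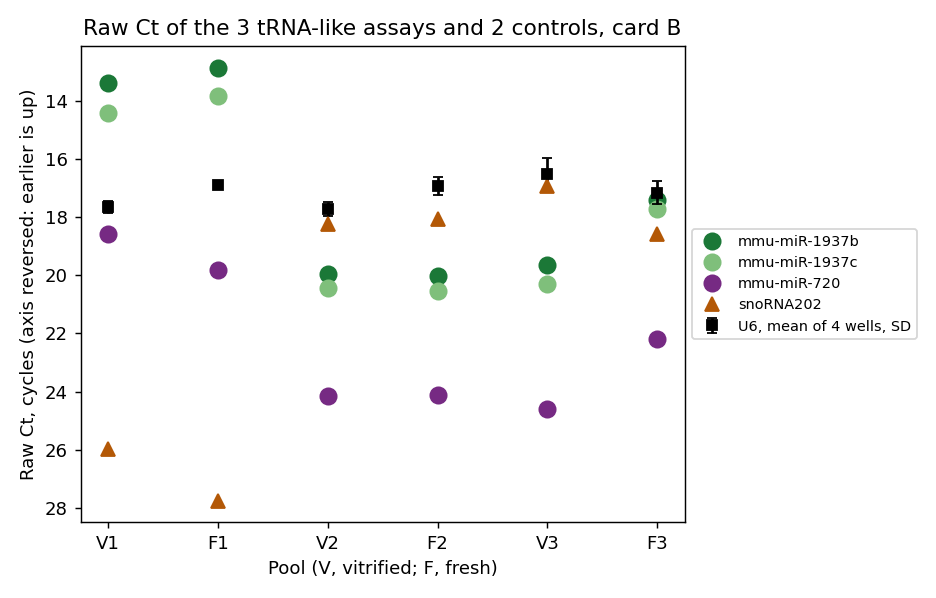
Raw Ct in cycles on a reversed axis, so that earlier wells are higher, for each pool of vitrified (V) and fresh (F) blastocysts. Circles are the 3 tRNA-like assays, squares the mean and SD of the 4 U6 wells of card B, and triangles snoRNA202 on card B. In V1 and F1 both miR-1937 assays lay above U6, while snoRNA202 fell to 25.97 and 27.74.

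U6 did not share this pattern. The mean of its 4 wells on card B was 17.66, 17.72 and 16.52 in the vitrified pools V1, V2 and V3 and 16.88, 16.94 and 17.16 in the fresh pools F1, F2 and F3, a range of 1.20 cycles, and the SD among the 4 wells was between 0.135 and 0.545. The Ct of mmu-miR-1937b minus that of U6 was -4.27 cycles in V1 and -4.02 in F1, so that this assay came before U6 there. In F3 it was 0.26 cycles, and in V2, V3 and F2 it was 2.25 to 3.12 cycles. mmu-miR-1937c crossed U6 in the same pools, and mmu-miR-720 came after U6 in each pool, by 0.92 cycles in V1 and 8.09 in V3 at the extremes.

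The controls other than U6 ran the other way. The snoRNA202 well of card B was at 25.97 in V1 and at 27.74 in F1, whereas the other pools had 16.94 to 18.59. Y1 gave no Ct in V1 or F1 on either card, whereas the other pools had 28.18 to 32.86 over both cards. Of the 8 wells of snoRNA135, snoRNA202, U87 and Y1 on both cards, 3 gave a Ct in F1, 6 in V1 and 8 in each other pool. For the 3 of these wells determined in every pool, the mean of V1 and F1 was 8.69 to 10.54 cycles later than that of the other pools. For the 3 tRNA-like assays this difference had the opposite sign. The part of these controls and of the low number of determined assays in the tRNA-like values of V1 and F1 was not tested.

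The mean raw Ct of V1 and F1 minus that of the other 4 pools was -6.14 cycles for mmu-miR-1937b, -5.61 for mmu-miR-1937c and -4.57 for mmu-miR-720. With a doubling in each cycle, the signal in V1 and F1 was 70.7-fold, 48.9-fold and 23.7-fold that of the others. For 122 miRNA assays a Ct was obtained in each of the 6 pools, and their median difference was 4.31 cycles, thus later in V1 and F1, and over the 42 of them on card B it was 2.03 cycles. An earlier mean in V1 and F1 was found for 15 of the 122 and a later one for 107. V1 and F1 were both earlier than each of the other pools for 7 of the 122 assays (5.74%), the 3 tRNA-like assays among them. Both were later than each of the others for 91. Because the assays were chosen with this difference known, nothing is read from their count.

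**Figure D2:**
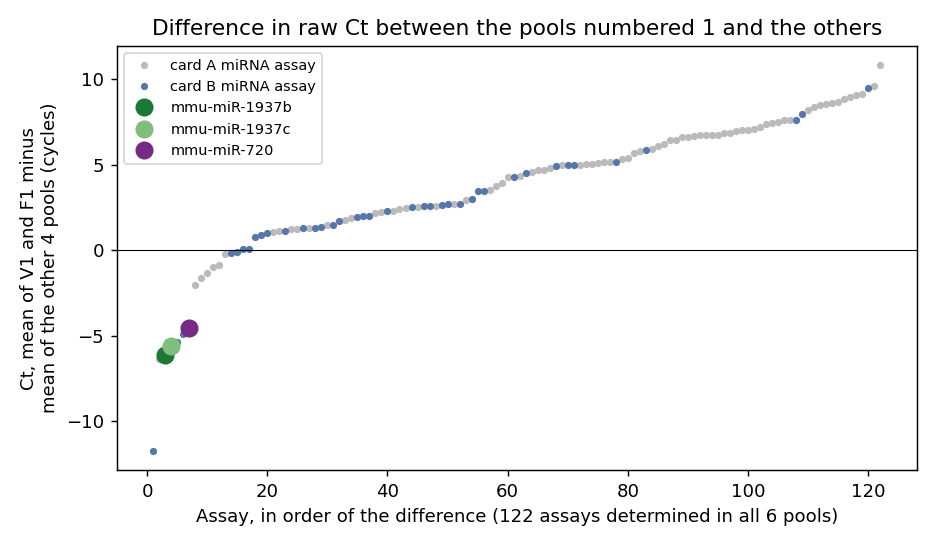
Difference in raw Ct (cycles) between the mean of V1 and F1 and the mean of the other 4 pools, for the 122 miRNA assays determined in every pool, in ascending order. Grey points are card A, blue points card B, and large points the 3 tRNA-like assays, which are numbers 3, 4 and 7 from the low end, while 107 of the 122 assays lie above 0.

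The place of these assays within each pool followed the same division. mmu-miR-1937b and mmu-miR-1937c were numbers 1 and 2 by Ct among all miRNA assays determined in V1 and in F1. In the other pools mmu-miR-1937b was number 3 or 4 and mmu-miR-1937c number 4 to 7. mmu-miR-720 was number 3 of 218 in V1 and number 4 of 140 in F1, and it was number 35 of 405 in F3, 58 of 382 in V2, 58 of 409 in F2 and 69 of 407 in V3. These numbers depend on the efficiency of each assay and on how many assays were determined.

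A share of signal was computed as 2 to the power of -Ct of an assay over the sum for all miRNA assays determined on card B, which takes every assay to double in each cycle. The 3 tRNA-like assays together made up 99.2% of this sum in V1 and 98.7% in F1. Of the sum, mmu-miR-1937b held 65.7% in V1 and 65.2% in F1, mmu-miR-1937c 31.8% and 32.9%, and mmu-miR-720 1.80% and 0.528%. The 3 together made up 5.23% in V2, 4.24% in V3, 3.34% in F2 and 14.9% in F3. In these 4 pools rno-miR-632 and mmu-miR-2134, the earliest of the other assays on the card, held most of the sum. The assay of rno-miR-632 had a Ct of 14.64 to 15.78 there and was undetermined in V1 and F1, and mmu-miR-2134 was at 15.72 to 16.75 there but at 22.45 in V1 and 19.84 in F1. The share is thus a statement on all of these assays, since a lower signal of rno-miR-632 and mmu-miR-2134 raises the share of the others.

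**Figure D3:**
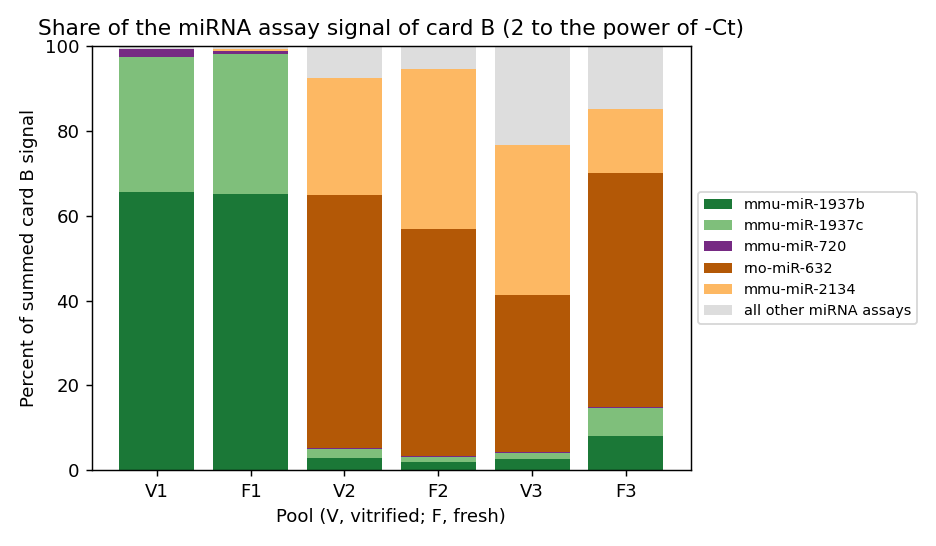
Percent of the summed miRNA assay signal of card B (2 to the power of -Ct) held by the 3 tRNA-like assays, by rno-miR-632 and mmu-miR-2134, and by all other miRNA assays, for each pool. Green and purple fill 99.2% of V1 and 98.7% of F1 but 3.34% to 14.9% of the other pools.

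F3 lay between the pools numbered 1 and the rest. Its raw Ct minus the mean of V2, V3 and F2 was -2.11 cycles for mmu-miR-720, -2.73 for mmu-miR-1937c and -2.46 for mmu-miR-1937b. The median of this difference was -0.60 cycles over all 122 assays and -0.68 over those of card B, of which the 5th percentile was -2.85. Ordered from the most negative difference, mmu-miR-1937c was number 5, mmu-miR-1937b number 8 and mmu-miR-720 number 12 of the 122. F3 gave a Ct for 405 miRNA assays, among them 8 of the 17 for miR-290 to miR-295, and was not like V1 and F1 in this.

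The distances between the 3 assays varied less over the pools than their levels did. The Ct of mmu-miR-1937c minus that of mmu-miR-1937b was 1.05, 0.48 and 0.67 cycles in the vitrified pools (V1, V2 and V3) and 0.99, 0.51 and 0.28 in the fresh ones (F1, F2 and F3). The Ct of mmu-miR-1937b itself had a range of 7.17 cycles over these pools. From mmu-miR-1937b to mmu-miR-720 the distance was 6.95 cycles in F1 and between 4.08 and 5.19 in the other 5 pools.

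These distances need no reference RNA, and each of the 3 pairs was compared between vitrified and fresh pools. The distance from mmu-miR-1937b to mmu-miR-1937c averaged 0.73 ± 0.29 cycles (SD, n = 3) after vitrification and 0.59 ± 0.36 (SD, n = 3) without it, so that the means were 0.14 cycles apart (p = 0.6, 2-sided exact permutation test). From mmu-miR-1937b to mmu-miR-720 it averaged 4.78 ± 0.54 (SD, n = 3) and 5.26 ± 1.50 (SD, n = 3), and vitrified minus fresh was -0.48 cycles (p = 0.9 by the same exact test). From mmu-miR-1937c to mmu-miR-720 it averaged 4.04 ± 0.32 (SD, n = 3) and 4.67 ± 1.21 (SD, n = 3), and vitrified minus fresh was -0.62 cycles (p = 0.5 by the same exact test). The Benjamini-Hochberg adjusted p of this exact test was 0.9 for each of the 3 pairs, and 3 pools against 3 cannot give a p under 0.1. None of the differences was larger than the spread between the fresh pools. Without V1 and F1 vitrified minus fresh was 0.18, 0.16 and -0.024 cycles for these 3 distances in the same order, so that the distance from mmu-miR-1937b to mmu-miR-720 turned direction.

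For the comparison of vitrified with fresh blastocysts the mean Ct of U6 on card B was subtracted to give ΔCt, and -ΔCt was used as the level on the log2 scale. The level of the 3 tRNA-like assays was not distinguishable between the groups, in a comparison whose spread the choice of assays had widened. For mmu-miR-720 the ΔCt of V1, V2 and V3 was 0.92, 6.42 and 8.09, and that of F1, F2 and F3 was 2.93, 7.17 and 5.02. The vitrified pools thus spanned the whole range of the fresh ones. The mean ΔCt was 5.15 ± 3.75 (SD, n = 3) with vitrification against 5.04 ± 2.12 (SD, n = 3) without, which gave a log2 fold change of -0.11 (standard error 2.12, 95% interval -5.24 to 5.02, adjusted p = 0.998 from limma).

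For mmu-miR-1937b the ΔCt of the vitrified pools in the same order was -4.27, 2.25 and 3.12, and that of the fresh pools was -4.02, 3.10 and 0.26. The log2 fold change was -0.59 (standard error 2.60, 95% interval -6.86 to 5.69, adjusted p = 0.998 from limma). For mmu-miR-1937c these values were -3.22, 2.74 and 3.79, and -3.03, 3.61 and 0.55. The log2 fold change was -0.73 (standard error 2.43, 95% interval -6.62 to 5.16, adjusted p = 0.998 from limma). In both miR-1937 assays V1 and F1 lay within 0.25 cycles of ΔCt of each other, and both were apart from the other pools of their own group.

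Of the 335 miRNA assays tested, 0 (0%) had an adjusted p under 0.05 by limma and 1 (0.299%) an unadjusted p under 0.05. The unmoderated equal-variance test named in the study's methods gave 0 and 9. These p-values rest on the spread between pools within a group. As each pool has 1 well per assay, that spread also holds the error of the wells. The 3 tRNA-like assays were among the 335, and 0 of the 3 passed either threshold. Their log2 fold changes lay inside the middle range of all assays, which ran from -1.09 at the 25th percentile to 0.70 at the 75th, around a median of -0.05. The ΔCt values of vitrified and fresh pools overlapped in each of the 3, as they did in all but 2 of the 122 assays determined in every pool (1.64% did not overlap). In the 3 assays this overlap followed from their selection for early V1 and F1, so nothing is read from it. The 2-sided exact permutation test gave p = 1.0 for mmu-miR-720 and p = 0.9 for mmu-miR-1937b and mmu-miR-1937c. With that overlap it could not reach its smallest p of 0.1.

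**Figure D4:**
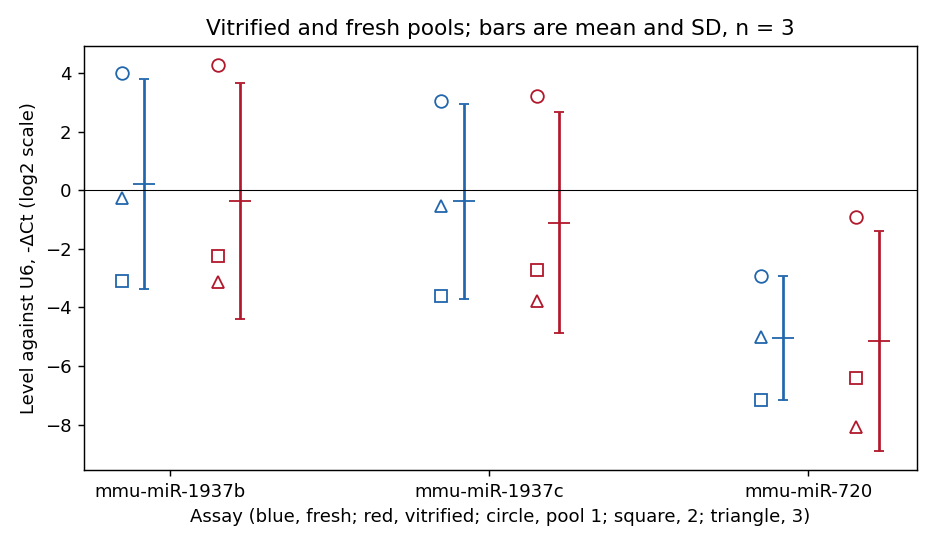
Level against U6 (-ΔCt, log2 scale) of the 3 tRNA-like assays in fresh (blue) and vitrified (red) pools. Circles are the pools numbered 1, squares those numbered 2 and triangles those numbered 3, and the bars give mean and SD (n = 3). In each assay the circles of both groups are uppermost, as the assays were selected for, and the groups therefore overlap.

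Without V1 and F1 the log2 fold changes were -1.16 for mmu-miR-720, -1.19 for mmu-miR-1937c and -1.01 for mmu-miR-1937b (standard errors 1.02, 1.16 and 1.09, adjusted p = 0.912 from limma for each). The ΔCt values of both groups overlapped in these 4 pools as well. Of 326 miRNA assays tested without V1 and F1, 0 (0%) had an adjusted p under 0.05 by limma and 16 (4.91%) an unadjusted one, and the 3 tRNA-like assays were not among the 16. The direction turned when F1 alone was left out, to 0.95, 0.98 and 1.31 in the same order, and without V1 alone the values were -2.22, -2.89 and -2.91. Leaving out V2 or V3 also turned the direction of each. The choice of reference moved the size as well. Without any reference the log2 fold changes were -0.41, -1.03 and -0.89 for mmu-miR-720, mmu-miR-1937c and mmu-miR-1937b. With snoRNA202 as the reference they were -1.48, -2.11 and -1.97, with standard errors of 5.43, 5.85 and 6.05. These errors exceed the changes, so that no larger decrease is read from them.

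The miRNA assays most like the tRNA-like ones were sought by the Pearson correlation of their raw Ct over the 6 pools with the mean of the 3. These were mmu-miR-202-3p (0.97), hsa-miR-99b# (0.96), mmu-miR-34c# (0.96), hsa-miR-875-5p (0.95) and mmu-miR-34b-3p (0.79). As V1 and F1 lie apart from the other pools, the coefficient is largely set by that gap. The mark # denotes the arm of the hairpin that is usually the less abundant. miR-202 is known from the gonads, and miR-34b and miR-34c arise from a common transcript and are abundant in the testis and in ciliated epithelia.

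The mature mouse sequences of 4 of these, with that of a further assay described later, mmu-miR-204-3p, are shown with bases 2 to 8, the seed by which a miRNA pairs with its targets, in capitals, because they show what the most similar assays share and do not share. They are from RefSeq (GRCm38.p6), in which 5 of 9 names looked up were matched, those of the 3 tRNA-like assays and hsa-miR-875-5p not among them, and are written 5′ to 3′. The assays hsa-miR-99b# and rno-miR-204#, named for human and rat, were matched to the mouse miRNA of that arm.
mmu-miR-202-3p: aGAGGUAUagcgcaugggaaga
mmu-miR-34c-3p (assay mmu-miR-34c#): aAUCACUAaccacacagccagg
mmu-miR-34b-3p: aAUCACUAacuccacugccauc
mmu-miR-99b-3p (assay hsa-miR-99b#): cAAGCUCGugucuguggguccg
mmu-miR-204-3p (assay rno-miR-204#): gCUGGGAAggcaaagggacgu

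The seed of mmu-miR-34c-3p and mmu-miR-34b-3p was the same, and 17 of their 22 positions were identical. They lie 530 bases apart on the minus strand, at chr9:51103044-51103065 and chr9:51103574-51103595. The seeds of mmu-miR-202-3p, at chr7:139957695-139957716 on the minus strand, mmu-miR-99b-3p, at chr17:17830232-17830253 on the plus strand, and mmu-miR-204-3p, at chr19:22750649-22750669 on the plus strand, differed from this seed and from each other.

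The raw Ct of mmu-miR-34c# was 22.47, 27.27 and 27.09 in the vitrified pools (V1 to V3) and 20.07, 26.82 and 25.30 in the fresh ones (F1 to F3). This is the order seen for both miR-1937 assays, with F1 before V1, F3 next and the others last. mmu-miR-34b-3p, with the same seed, showed less of it, at 22.98 in V1 and 24.08 in F1 against 23.81 in F3 and 24.55 to 25.97 in V2, V3 and F2, so that F1 and F3 were not apart.

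The assay of mmu-miR-202-3p was at 27.96 in V1 and 28.96 in F1, against 34.01 to 35.97 in the other pools. The assay of hsa-miR-99b# was at 27.62 in V1 and 25.93 in F1, against 29.58 in F3 and 31.69 to 33.17 in V2, V3 and F2. The widest difference was that of hsa-miR-875-5p, at 25.66 in V1 and 23.67 in F1 against 34.26 to 38.76 in the others.

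Counting a well without a Ct as later, 8 of the 129 miRNA assays determined in V1 and F1 were earlier in both than in each other pool. They were the 3 tRNA-like assays, the first 4 of those most like them, and rno-miR-204#, at 28.71 in V1, 27.04 in F1, 33.81 in V2, 34.06 in F2 and 32.86 in F3 and undetermined in V3. Of these 5 other assays, 4 were on card B and 3 carry the mark #. For comparison, 42 of the 122 assays determined in every pool were on card B. The share with the mark # was not counted, and nothing is read from either count. None of these 5 other assays had a raw Ct below 20 in any pool, whereas both miR-1937 assays had one below 15 in V1 and F1. mmu-miR-720 was not so far apart. It was at 18.58 in V1 and 19.81 in F1, against 22.47 and 20.07 for mmu-miR-34c#.

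None of the opposite arms of the most similar miRNAs was seen to be earlier in V1 and F1. On card A mmu-miR-34c was at 29.77 in V1 and 34.62 in F1, against 26.82 to 27.33 in the other pools. mmu-miR-99b had a Ct of 32.39 in V1 and none in F1, against 25.43 to 26.89 in the others, and mmu-miR-202-5p and mmu-miR-875-3p were undetermined in each pool. mmu-miR-34b-5p was at 33.29 in V1 and 35.87 in F1, against 31.40 to 32.53. Each of these opposite arms that gave a Ct in V1 or F1 was thus later there than in the other pools. Both V1 and F1 were later than each other pool for 91 of the 122 assays determined in every pool. Being later there is thus not particular to these arms. mmu-miR-204, the arm opposite to rno-miR-204#, was not later, at 26.09 in V1 and 25.91 in F1 against 25.87 to 26.85 in the others. Its mean in V1 and F1 minus that of the others was -0.22 cycles, thus slightly earlier. These arms were chosen after the similar assays were known.

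Other assays whose number has 4 digits and begins with 19, as that of miR-1937 does, were mostly undetermined in V1 and F1, as were most miRNA assays. Of these 54 assays, 30 gave a Ct in at least 1 pool, 5 in V1 and 2 in F1, against 16 to 19 in the other pools. Over all 750 miRNA assays a Ct was obtained for 218 in V1 and 140 in F1, against 382 to 409 in the others. The miR-1937 assays were chosen with their early Ct in V1 and F1 known, so no contrast with them is read from these counts. The 1 determined in all 6 pools was mmu-miR-1930, and its mean in V1 and F1 was later than that of the others by 1.72 cycles. Of the 54 assays 11 were tested, 0 of them with an adjusted p under 0.05 by limma, and their median log2 fold change was 0.09 against -0.05 over all 335.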

How the data were processed

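RNA of 3 vitrified and 3 fresh pools was reverse transcribed, pre-amplified and measured on both cards. The authors deposited 1 raw Ct per well and pool, a value on the log2 scale with the sign reversed, taken with RQ Manager and not normalized. Their table of fold changes holds only their own comparison and was not used. The threshold and baseline settings are not given in the sources used here. No 2 pools shared an identical Ct for any miRNA assay.

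Wells undetermined or at 40 cycles or more were left out. For ΔCt, the 4 U6 wells on that card and in that pool were averaged and their mean was subtracted. Assays with a Ct in 2 or more pools of each group were fitted with limma 3.58.1 in R 4.3.3, with Benjamini-Hochberg adjustment over 335 assays. The step was tested on simulated data. For single values a 2-sided exact permutation test ran over the 20 arrangements of the pools, which allow no p below 0.1. Python 3.11.15, pandas 2.3.3 and numpy 2.4.6 were used for the tables. Each assay has 1 well per pool, so that well error and pool differences are not separated. Precision is limited by how few pools there are and, for the 3 tRNA-like assays, by the distance of V1 and F1 from the others. Their standard errors were 2.12, 2.43 and 2.60 for mmu-miR-720, mmu-miR-1937c and mmu-miR-1937b over all 6 pools. Without V1 and F1 they were 1.02, 1.16 and 1.09.

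Over 122 assays the deviations of same-numbered pools from their group means had correlations of 0.80, 0.78 and 0.67 for numbers 1, 2 and 3. Deviations within a group sum to 0, so that the shared gap of V1 and F1 enters all 3 values. Without V1 and F1, the correlation of V2 minus V3 with F2 minus F3 was -0.014, and the numbers 2 and 3 were not seen to pair the pools. The numbers come from the sample labels, which do not say that pools of a number were prepared together.

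The members and lists were chosen with earlier results of these data known. By rule, the assays named were the 3 members, the controls of the cards, the 5 miRNA assays most like the members, up to 5 others that were earlier in both pools numbered 1, and the earliest others on card B, of which the leading pair is described. Opposite arms, the miR-290 to miR-295 check and mmu-miR-1930 were added after values were seen. A planned list of miRNA numbers without a RefSeq entry was not used, because the sequence table is not complete. Alternatives were other references, wells below 35 cycles only, a value of 40 for undetermined wells, assays determined in all pools, a block for the pool number, leaving out each pool, the pools numbered 2 and 3 only, a variance trend, and an unmoderated comparison.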

Additional observations from a re-analysis of the deposited data

How the results depend on the processing

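The assays with an adjusted p under 0.05 by limma numbered 0 under each of the 16 alternatives, including a range of 0 to 0 with each pool left out, while the number with an unadjusted p under 0.05 went from 0 to 16, the latter for the pools numbered 2 and 3 only. Each of the 3 tRNA-like assays kept an adjusted p above 0.85 throughout, with the lowest at 0.857. Apart from the pools numbered 2 and 3 only, these alternatives keep V1, F1 or both. The spread set by the choice of these assays thus enters them. The replicate block left the fold changes at -0.11, -0.73 and -0.59 for mmu-miR-720, mmu-miR-1937c and mmu-miR-1937b, with standard errors of 1.13, 1.02 and 0.976, and changed no call. With the mean of the card's assays determined in all pools as the reference, the fold change of mmu-miR-720 was 0.028 and thus turned direction. Leaving out 1 pool at a time, log2 fold changes ranged from -2.22 to 1.37 for mmu-miR-720, from -2.89 to 0.98 for mmu-miR-1937c and from -2.91 to 1.31 for mmu-miR-1937b. The differences between vitrified and fresh pools in the distances between assays ranged from -1.17 to 0.026 cycles (mmu-miR-720 minus mmu-miR-1937c), from -1.07 to 0.36 (mmu-miR-720 minus mmu-miR-1937b) and from -0.017 to 0.34 (mmu-miR-1937c minus mmu-miR-1937b), and the pools numbered 2 and 3 alone gave 0.16 for mmu-miR-720 minus mmu-miR-1937b. The cause of these turns was not tested.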
